A study of Homo sapiens with 2 samples.

Results

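The nuclear genes for the subunits of the respiratory chain and ATP synthase were followed in A549 cells, a human line from a non-small cell lung cancer (lung adenocarcinoma). One library came from cells carrying the shRNA shPSPC1 against PSPC1, an RNA-binding protein of nuclear paraspeckles. The other came from cells carrying the control shRNA shLacZ, against a bacterial gene that human cells lack. Total RNA was sequenced, each group had 1 library, and no difference below has a replicate check or a test. The members were the annotated genes named as NDUFA, NDUFB, NDUFC, NDUFS and NDUFV subunits, SDHA to SDHD, the UQCR genes with CYC1, the COX4 to COX8 subunits and the ATP5 subunits, without assembly factors or pseudogenes, together with assembled transcripts that share an intron with them. This gave 86 genes of 24748 with annotated transcripts in both libraries: 36 of complex I, 4 of complex II, 10 of complex III, 18 of complex IV and 18 of complex V. NDUFA4 was counted with complex IV, where its protein resides.

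The respiratory chain sits in the inner mitochondrial membrane. Complexes I and II take electrons from NADH and succinate and hand them to ubiquinone, complex III passes them on to cytochrome c, and complex IV delivers them to oxygen. Complexes I, III and IV pump protons as they do so, and complex V, the ATP synthase, makes ATP from the returning protons. Most subunits are encoded in the nucleus and imported as proteins, while a few core subunits are encoded in mitochondrial DNA, so the genes of a complex are read from separate genomes. In many tissues nuclear subunit genes vary together, and the factors NRF1, GABP and YY1 are known to bind many of their promoters.

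Expression was read as FPKM, the fragments of a transcript divided by its length and by the depth of the library, which the authors computed for each transcript. Values after ± are half-widths of the deposited 95% intervals and cover error within a library only. The depth implied by those intervals was 56900000 fragments in the shPSPC1 library and 56000000 in the shLacZ library. A gene was described by 2 measures. The first is the sum of its transcripts' FPKM. The second is its number of estimated fragments over all transcripts, put back on the FPKM scale with its longest annotated transcript. That length comes from the annotation and not from the assembled transcripts. Fragments on assembled transcripts that run past the annotated gene are counted as well. The measure can therefore still depend on which transcripts a library lists. Log2 ratios are shPSPC1 over shLacZ with 1 FPKM added to each value. PSPC1 itself was at 17.7 ± 0.858 FPKM in the shPSPC1 library and 31.5 ± 1.25 FPKM in the shLacZ library, a log2 ratio of -0.79. All 6 A549 markers were detected, and all 6 were lower in the shPSPC1 library, with a median log2 ratio of -0.33 and a summed level of 2920 FPKM, against 3708 FPKM in the shLacZ library. Of 15 markers of leukocytes, fibroblasts and endothelium, only CD68 and CD14 reached a mean of 1 FPKM, and CD68 had 8.91 FPKM in the shPSPC1 library and 15.6 FPKM in the shLacZ library. Their summed level was 10.8 FPKM in the shPSPC1 library and 17.7 FPKM in the shLacZ library. CD3E, a T cell marker, and COL1A2, a fibroblast marker, were listed at 0 in both libraries. The part of the lower epithelial markers in the results below was not tested.

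Across the chain, most subunit RNAs were slightly higher in the shPSPC1 library. Of the 86 genes, 79 had a mean of at least 1 FPKM, and by estimated fragments 72 of these 79 lay above 0 and 7 below. Among all 11197 genes at that level, 51% lay above 0, so 91.1% of the chain's genes stand against a background close to an even split. The median log2 ratio of the 79 genes was 0.18, a value about 13.4% higher in the shPSPC1 library with 1 FPKM added, while the median of all 11197 genes was 0.01. FPKM is relative to the depth of a library and does not measure the amount of RNA in a cell. By summed FPKM 64 of the 79 lay above 0 and 15 below, with a median of 0.17. The middle 50% of the members by estimated fragments ran over 0.10 to 0.26, and that of all genes over -0.15 to 0.15. Members spread over 22 chromosomes, with 3 of them on the X chromosome. In bulk RNA, more cells of a kind and more RNA per cell cannot be told apart.

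The sizes were small. A rule of size stood in for a test: a gene had to reach 1 FPKM in the higher library, show a log2 ratio of 1 or more in size and have separate intervals. No member passed it by estimated fragments, in either direction. Over all genes 1.21% were higher and 1.46% lower past this rule. At a lower limit of 1.2-fold with separate intervals, 18 of the 79 genes were higher and 1, SDHD, was lower. The shares among all genes were 11% higher and 14.4% lower. The members called higher were 10 genes of complex I, 3 of complex III, 3 of complex IV and 2 of complex V. Among those of complex I, NDUFS1 and NDUFV3 include fragments of assembled transcripts that run past the annotated gene in the shPSPC1 library. Abundant genes have narrow intervals and are called more easily, and of 985 protein-coding genes at 50 FPKM or more, 87 were higher and 157 lower by the same limit, with a median log2 ratio of 0.02. Intervals were separate with the higher value in the shPSPC1 library for 56 members, and with the higher value in the shLacZ library for 2, NDUFV1 and SDHD, where 24.1% and 24.2% of all genes had separate intervals in these directions.

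**Figure D1:**
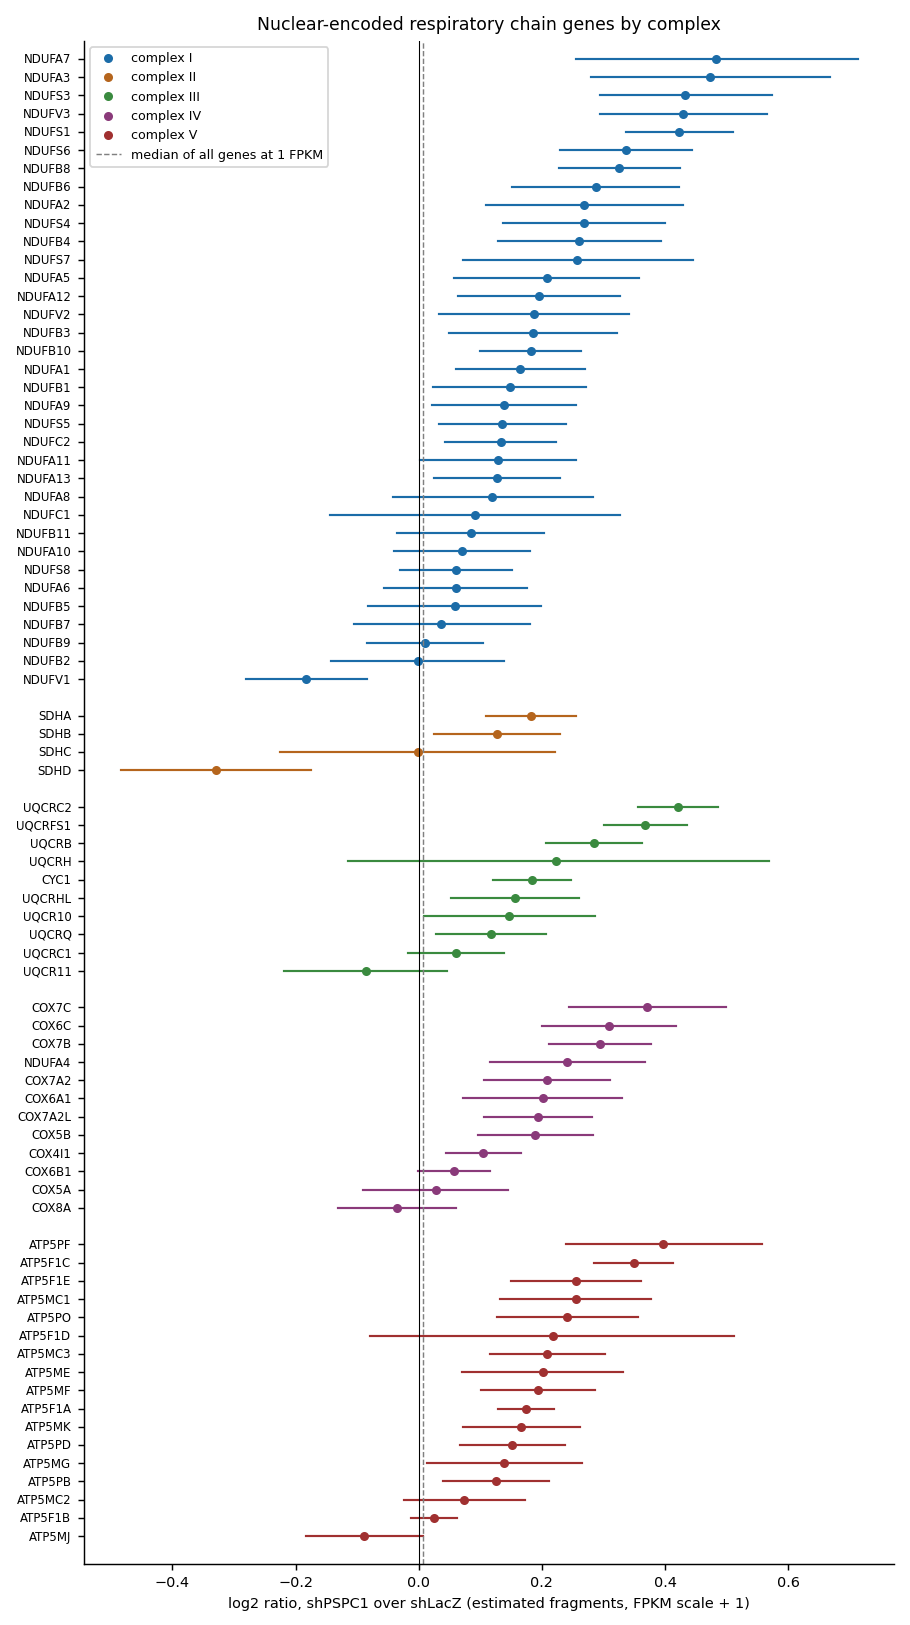
Log2 ratio of 78 of the 79 subunit genes at 1 FPKM or more, shPSPC1 over shLacZ, by estimated fragments on the FPKM scale plus 1, grouped and coloured by complex; bars run between the bounds given by both libraries' 95% intervals, and the dashed line is the median of all genes. Most points lie right of 0, and SDHD and NDUFV1 are the members whose bars lie wholly left of it.

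Members are short, abundant genes, and this was examined because short transcripts are the most sensitive to how FPKM is computed. The longest annotated transcript had a median of 921 bases over the 79 members and 2960 bases over all genes. The 44 members under 1000 bases had a median log2 ratio of 0.19 by estimated fragments, and the 35 longer members one of 0.14. Protein-coding genes under 1000 bases had a median of 0.06, over 619 genes, members included. A higher value was thus found in both length classes of the members, with the larger median in the short class, and the part of transcript length in it was not tested. Members with annotated transcripts alone in both libraries, 52 genes, had a median of 0.18 with 49 above 0, so the pattern was also present in genes where no assembled transcript enters the sum.

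Complex I, the NADH dehydrogenase, had all 36 genes expressed, with 34 above 0 and a median log2 ratio of 0.17 by estimated fragments. The most abundant was NDUFS5, an accessory subunit, at 193 ± 6.69 FPKM in the shPSPC1 library and 175 ± 6.44 FPKM in the shLacZ library. NDUFA1, a small membrane-arm accessory subunit on the X chromosome, had 176 ± 6.18 FPKM against 156 ± 5.86 FPKM in shLacZ cells. NDUFB10, another accessory subunit of the membrane arm, had 172 ± 4.76 FPKM in shPSPC1 cells and 152 ± 4.49 FPKM in shLacZ cells. These abundant accessory genes therefore moved by log2 ratios of 0.14, 0.17 and 0.18, close to the median of the complex.

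The largest ratio of complex I belonged to NDUFA7, an accessory subunit of the peripheral arm. It had 29.6 ± 2.22 FPKM in the shPSPC1 library and 20.9 ± 1.88 FPKM in the shLacZ library, or 712 and 499 fragments, which gives a log2 ratio of 0.48 (bounds 0.26 and 0.71). NDUFA3, a membrane-arm subunit, followed with 94.4 ± 5.91 FPKM in shPSPC1 cells and 67.8 ± 5.0 FPKM in shLacZ cells, a log2 ratio of 0.47. The bounds of both genes lay above 0, and neither reached a doubling.

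The core subunits that carry the flavin and the iron-sulfur clusters did not move alike. NDUFV1 binds the FMN that accepts electrons from NADH, and it was lower, with 3576 fragments in the shPSPC1 library and 4014 in the shLacZ library, which gives a log2 ratio of -0.18 (bounds -0.28 and -0.08). Its partner NDUFV2, with an iron-sulfur cluster of its own, had 1429 fragments in shPSPC1 cells and 1236 in shLacZ cells, a log2 ratio of 0.19. NDUFV3, the small accessory subunit of the same module, had 2392 fragments in shPSPC1 cells and 1723 in shLacZ cells, a log2 ratio of 0.43. Of the fragments in shPSPC1 cells, 828 lay on an assembled transcript of 5334 bases. It runs past the annotated end of the gene and was listed in that library only. By estimated fragments NDUFV1 thus differed in direction from the other members of the NADH-binding module, including NDUFS1, the largest core subunit with several iron-sulfur clusters. NDUFS1 had 6658 fragments in the shPSPC1 library and 4845 in the shLacZ library, a log2 ratio of 0.42. Here 2201 of the fragments in the shPSPC1 library lay on an assembled transcript of 11773 bases, which also runs past the annotated end. Without the fragments of these long transcripts, NDUFS1 and NDUFV3 would both lie below their shLacZ counts, so their direction by fragments rests on them. The summed FPKM of NDUFS1 gave the other direction, 31.1 ± 1.06 FPKM against 34.0 ± 1.2 FPKM in shLacZ cells, a log2 ratio of -0.13. NDUFV3 also changed direction between the measures, with a log2 ratio of -0.23 by summed FPKM.

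Core subunits of the quinone-binding module lay above 0 by estimated fragments, with ratios that varied in size. NDUFS3 had 42.2 ± 1.93 FPKM in shPSPC1 cells and 31.0 ± 1.66 FPKM in shLacZ cells, a log2 ratio of 0.43. NDUFS7, which carries the last iron-sulfur cluster before ubiquinone, had 27.5 ± 1.76 FPKM in shPSPC1 cells and 22.8 ± 1.61 FPKM in shLacZ cells, a log2 ratio of 0.26. NDUFS8, with a pair of iron-sulfur clusters, was at 112 ± 3.5 FPKM in shPSPC1 cells and 107 ± 3.45 FPKM in shLacZ cells, and its intervals overlapped. NDUFS4 and NDUFS6, accessory subunits that help to attach the NADH-binding module, had log2 ratios of 0.27 and 0.34. Of the remaining genes, NDUFB2 had equal values in both libraries, 88.4 and 88.5 FPKM, and NDUFB8 had the largest ratio of the NDUFB genes at 0.33, with 3847 fragments in shPSPC1 cells and 3035 in shLacZ cells.

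Complex II, the succinate dehydrogenase, is the only complex with all subunits encoded in the nucleus, and its 4 genes split. SDHA, the flavoprotein that oxidises succinate, had 50.1 ± 1.26 FPKM in the shPSPC1 library and 44.0 ± 1.19 FPKM in the shLacZ library, a log2 ratio of 0.18. SDHB, its iron-sulfur partner, had 57.3 ± 2.02 FPKM in shPSPC1 cells and 52.4 ± 1.94 FPKM in shLacZ cells, a log2 ratio of 0.13. SDHD, which anchors the enzyme in the membrane and takes part in the quinone site, had 16.5 ± 0.983 FPKM in shPSPC1 cells and 21.0 ± 1.12 FPKM in shLacZ cells, or 1133 and 1422 fragments. Its log2 ratio of -0.33 (bounds -0.48 and -0.18) was the lowest of all 79 members by estimated fragments; by summed FPKM, UQCRQ, UQCR10, ATP5MC3 and COX7A2 were lower. SDHC, the other anchor, had 561 fragments in shPSPC1 cells and 554 in shLacZ cells, and at 1.78 and 1.99 FPKM it was the least abundant of the expressed members. Its annotated transcript held 135 of these fragments in shPSPC1 cells and 174 in shLacZ cells. The rest lay on assembled transcripts that run past the annotated end of the gene in both libraries. The soluble pair of subunits was therefore above 0 and the membrane anchors at or below it. SDHA has pseudogene copies in the annotation, and 4 of them were listed at 2.21 to 7.37 FPKM in shPSPC1 cells and 2.04 to 5.04 FPKM in shLacZ cells, so part of the reads of SDHA and its copies may have been shared between them.

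Complex III, the cytochrome bc1 complex, had all 10 genes expressed, 9 of them above 0 by estimated fragments, with a median of 0.17. UQCRC2, a core protein on the matrix side, had 104 ± 2.19 FPKM in the shPSPC1 library and 77.3 ± 1.91 FPKM in the shLacZ library, a log2 ratio of 0.42 (bounds 0.36 and 0.49). Its counterpart UQCRC1 had 65.5 ± 1.78 FPKM in shPSPC1 cells and 62.7 ± 1.75 FPKM in shLacZ cells, a log2 ratio of 0.06, and its intervals overlapped. The core proteins thus differed in ratio, and the bounds of their ratios did not overlap. UQCRFS1, the Rieske iron-sulfur protein, had 136 ± 3.0 FPKM in shPSPC1 cells and 105 ± 2.65 FPKM in shLacZ cells, a log2 ratio of 0.37. CYC1, the cytochrome c1 that hands electrons to cytochrome c, had 146 ± 3.13 FPKM in shPSPC1 cells and 128 ± 2.95 FPKM in shLacZ cells, a log2 ratio of 0.18. UQCR11 was the member of this complex below 0, with 2022 fragments in shPSPC1 cells and 2122 in shLacZ cells and overlapping intervals.

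UQCRH, the hinge protein, and UQCRHL, a single-exon gene nearly identical to it, could not be separated with confidence, because short reads from one can align to the other. UQCRH had 3324 fragments in shPSPC1 cells and 2826 in shLacZ cells. UQCRHL had 3191 fragments in shPSPC1 cells and 2840 in shLacZ cells. Their sum was 6515 fragments in the shPSPC1 library and 5666 in the shLacZ library, a log2 ratio of 0.19 on the FPKM scale, and this sum does not depend on how the reads were split.

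By summed FPKM, 3 members passed the rule of size, all of them in complex III: UQCRB was higher, and UQCRQ and UQCR10 were lower. Over all genes 1.41% were higher and 1.8% lower by this measure. UQCRB binds near the quinone site, UQCRQ is a small subunit of the complex that spans the membrane, and UQCR10 is another of its small subunits. UQCRB had 221 ± 7.15 FPKM in the shPSPC1 library and 19.2 ± 0.542 FPKM in the shLacZ library, a log2 ratio of 3.45. In fragments it had 6266 in shPSPC1 cells and 5016 in shLacZ cells, a log2 ratio of 0.28. The difference lay in 1 assembled transcript of 467 bases with 211 FPKM and 3654 fragments, which was listed in the shPSPC1 library and not in the shLacZ library, where the annotated transcript of 4819 bases held all 5016 fragments. UQCRQ showed the opposite case: it had 51.7 ± 1.60 FPKM in shPSPC1 cells, all on the annotated transcript of 1585 bases, and 170 ± 5.53 FPKM in shLacZ cells, all on an assembled transcript of 558 bases. Its fragments were 4189 in shPSPC1 cells and 3804 in shLacZ cells, a log2 ratio of 0.12. The assembled transcript of UQCRQ runs past the annotated end of the gene, to 132209750. The fragments of the libraries thus cover different stretches, and the part of this in the ratio was not tested. UQCR10 had 46.4 ± 2.17 FPKM in shPSPC1 cells and 119 ± 6.56 FPKM in shLacZ cells, where an assembled transcript of 368 bases carried 93.0 FPKM with 1089 fragments. Its fragments were 2010 in shPSPC1 cells and 1790 in shLacZ cells, a log2 ratio of 0.15. All 3 genes were thus slightly higher by fragments, also those that fell by summed FPKM. The files place UQCRB at chr8:97238904-97247862 on the minus strand, UQCRQ at chr5:132202319-132204536 on the plus strand and UQCR10 at chr22:30163358-30166402 on the plus strand, in the files' own coordinates. The short transcript of UQCRB ends inside the long last exon of the annotated transcript, at 97243165, and begins in the first intron, at 97246370.

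**Figure D2:**
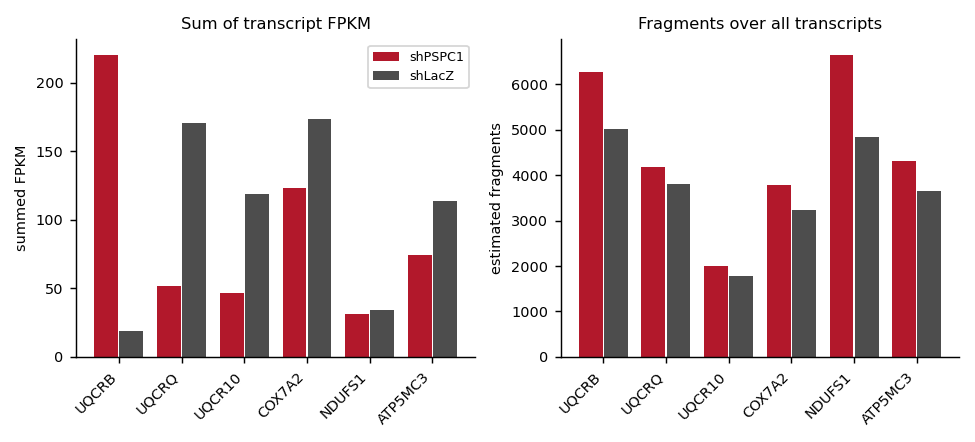
Summed FPKM (left) and estimated fragments (right) of 6 members in the shPSPC1 library (red) and the shLacZ library (grey). UQCRB is at 221 FPKM against 19.2 FPKM in shLacZ cells and UQCRQ at 51.7 FPKM against 170 FPKM, while the fragments of all 6 genes are higher in the shPSPC1 library.

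For transcript shares, transcripts with the same introns were pooled, so a change in transcript ends alone was not counted. UQCR10 is such a case: its annotated transcript of 916 bases had 40.6 FPKM in shPSPC1 cells and 11.6 FPKM in shLacZ cells. On this basis a share of the gene's FPKM changed by at least 0.3, with separate intervals, in 10 of 78 members. These 78 had 5 FPKM or more in both libraries. Over all 7101 genes at that level 23.4% had such a change. The 10 members included NDUFA5, NDUFA10 and NDUFS1 of complex I, UQCRB and UQCRQ of complex III, and COX6A1, COX6C, COX7A2 and COX7C of complex IV. In each of these, at least 1 of the changed transcripts was assembled from the reads and listed in only 1 library. COX7A2, a small subunit of complex IV, had its annotated transcript of 701 bases at 100% of its FPKM in shPSPC1 cells and 45.8% in shLacZ cells, where an assembled transcript of 314 bases held the rest. By fragments the gene had 3778 in shPSPC1 cells and 3232 in shLacZ cells, a log2 ratio of 0.21, against -0.49 by summed FPKM. NDUFA10, a membrane-arm accessory subunit, differed in direction between measures as well, with log2 ratios of 0.07 by fragments and -0.22 by summed FPKM. COX6A1 had an assembled transcript of 442 bases with 30.1% of its FPKM in shPSPC1 cells, which was not listed in shLacZ cells. Transcripts were matched by their introns, and NDUFA5, a peripheral-arm accessory subunit, is among the 10 for that reason alone. Its annotated transcript had 18.5 FPKM in shPSPC1 cells and 16.0 FPKM in shLacZ cells, beside an assembled transcript of 9.93 FPKM with the annotated introns in shPSPC1 cells and one of 8.36 FPKM with a different intron end in shLacZ cells. The annotated transcript thus held a like share in both libraries, and the gene had a log2 ratio of 0.21 by either measure. COX6C is among the 10 through assembled transcripts alone, each listed in 1 library. One of 355 bases held 72.1% of its FPKM in shPSPC1 cells, and one of 403 bases held 85.4% in shLacZ cells. The share of the annotated COX6C transcript, at 52.0 FPKM in shPSPC1 cells and 24.1 FPKM in shLacZ cells, did not pass the limit.

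Complex IV, cytochrome c oxidase, had 12 of its 18 genes at 1 FPKM or more, 11 of them above 0 by estimated fragments, with a median log2 ratio of 0.20. COX6B1, a subunit on the outer face of the membrane, was the most abundant member of the whole chain, with 415 ± 8.27 FPKM in shPSPC1 cells and 399 ± 8.14 FPKM in shLacZ cells. Its intervals overlapped. COX7B, an X-linked subunit, had 6034 fragments in shPSPC1 cells and 4894 in shLacZ cells, a log2 ratio of 0.29. COX4I1, the subunit through which ATP inhibits the enzyme, had 246 ± 5.11 FPKM in shPSPC1 cells and 229 ± 4.95 FPKM in shLacZ cells, a log2 ratio of 0.11. COX7C had the largest ratio of the complex, with 3427 fragments in shPSPC1 cells and 2640 in shLacZ cells, a log2 ratio of 0.37 (bounds 0.24 and 0.50). COX6C followed, with 3717 fragments in shPSPC1 cells and 2958 in shLacZ cells, a log2 ratio of 0.31. COX6B1 and COX4I1 were thus among the smaller ratios of the complex and COX7C, COX6C and COX7B among the larger ones. COX8A was below 0, at 182 ± 6.10 FPKM in shPSPC1 cells and 187 ± 6.20 FPKM in shLacZ cells with overlapping intervals. COX5A, which with COX5B surrounds the catalytic core, had 2891 fragments in shPSPC1 cells and 2806 in shLacZ cells, and its intervals overlapped. COX5B had 4377 fragments in shPSPC1 cells and 3812 in shLacZ cells, a log2 ratio of 0.19 with separate intervals. COX7A2L, which takes part in joining complexes III and IV into supercomplexes, had 84.6 ± 2.49 FPKM in shPSPC1 cells and 73.9 ± 2.35 FPKM in shLacZ cells, also a log2 ratio of 0.19. By fragments COX5A was thus nearly level, while by summed FPKM it was lower, with 83.6 ± 3.11 FPKM in shPSPC1 cells and 93.1 ± 4.24 FPKM in shLacZ cells, a log2 ratio of -0.15. NDUFA4, first taken for a complex I subunit, had 19.2 ± 0.843 FPKM in shPSPC1 cells and 16.1 ± 0.777 FPKM in shLacZ cells, a log2 ratio of 0.24.

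Several complex IV subunits have a second gene with a restricted tissue range, in heart and muscle for COX6A2 and COX7A1, in lung for COX4I2 and in testis for COX6B2, COX7B2 and COX8C. None of these 6 genes reached 1 FPKM in A549 cells. COX6A2, COX7B2 and COX8C had 0 fragments in both libraries, that is, they were listed at 0. COX4I2, whose product is the lung isoform, had 0 fragments in shPSPC1 cells and 1 in shLacZ cells, while COX4I1 had 9275 and 8526. COX7A1 had 6 fragments in shPSPC1 cells and 7 in shLacZ cells, and COX6B2 had 7 in shPSPC1 cells and 1 in shLacZ cells. The ubiquitous gene thus held nearly all fragments of each pair in both libraries. ATP5MGL, a copy of ATP5MG in complex V, had 3 fragments in shPSPC1 cells and 7 in shLacZ cells, and was the remaining member under 1 FPKM. ATP5MG had 2660 fragments in shPSPC1 cells and 2377 in shLacZ cells, a log2 ratio of 0.14.

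**Figure D3:**
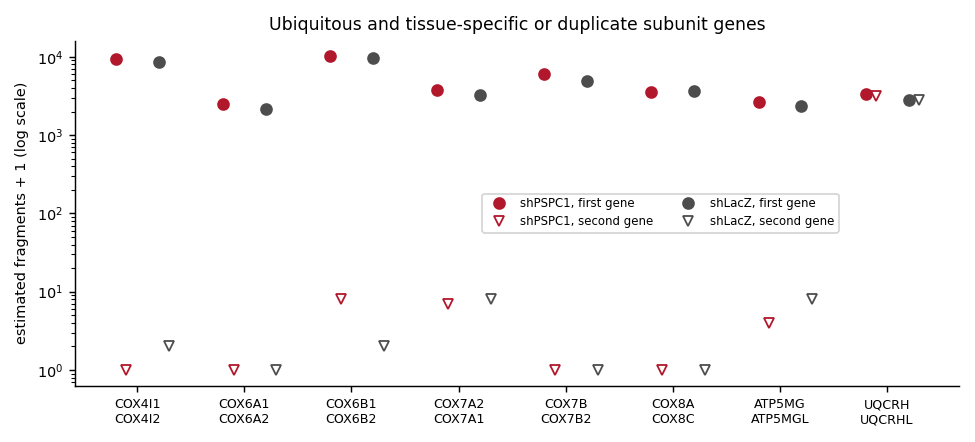
Estimated fragments plus 1 (log scale) of 8 pairs of subunit genes in the shPSPC1 library (red) and the shLacZ library (grey), with the first-named gene as filled circles and the second as open triangles. The tissue-restricted complex IV genes and ATP5MGL have at most 7 fragments in a library, while UQCRH and UQCRHL lie together, at 3324 and 3191 fragments in the shPSPC1 library.

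Complex V, the ATP synthase, had 17 of 18 genes expressed and 16 above 0 by estimated fragments, with a median log2 ratio of 0.19. The catalytic subunit beta, ATP5F1B, had 24024 fragments in shPSPC1 cells and 23273 in shLacZ cells, and 251 ± 3.24 FPKM against 247 ± 3.23 FPKM in shLacZ cells. Its log2 ratio was 0.03 and its intervals overlapped. Subunit alpha, ATP5F1A, which alternates with beta in the catalytic ring, had 16873 fragments in shPSPC1 cells and 14724 in shLacZ cells, a log2 ratio of 0.17 with bounds above 0. Subunit gamma, ATP5F1C, the rotating shaft inside that ring, had 163 ± 3.41 FPKM in shPSPC1 cells and 128 ± 3.03 FPKM in shLacZ cells, a log2 ratio of 0.35. Subunit epsilon, ATP5F1E, had 213 ± 7.47 FPKM in shPSPC1 cells and 179 ± 6.92 FPKM in shLacZ cells, a log2 ratio of 0.26. Within the catalytic head, beta was therefore nearly level between the libraries while gamma was higher, and the bounds of these genes did not overlap. Subunit delta, ATP5F1D, was the least abundant by summed FPKM, at 15.9 ± 1.90 FPKM in shPSPC1 cells and 13.5 ± 1.4 FPKM in shLacZ cells, and its intervals overlapped.

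The stalk and membrane part of the synthase was higher by estimated fragments at nearly all genes. ATP5PF, coupling factor 6 of the peripheral stalk, had the largest ratio of the complex, with 1679 fragments in shPSPC1 cells and 1243 in shLacZ cells, a log2 ratio of 0.40 (bounds 0.24 and 0.56). The other stalk genes ATP5PO, ATP5PD and ATP5PB had log2 ratios of 0.24, 0.15 and 0.13. ATP5MF, subunit f of the membrane part, was the most abundant of the complex, with 284 ± 8.86 FPKM in shPSPC1 cells and 247 ± 8.27 FPKM in shLacZ cells, a log2 ratio of 0.19 by fragments. ATP5MJ was below 0 by fragments, with 3866 in shPSPC1 cells and 4065 in shLacZ cells and overlapping intervals, but above 0 by summed FPKM, with 171 ± 7.88 FPKM in shPSPC1 cells and 147 ± 4.62 FPKM in shLacZ cells, a log2 ratio of 0.21.

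Subunit c, which forms the proton-driven ring, is encoded by 3 genes that give the same mature protein. ATP5MC3 had 4317 fragments in shPSPC1 cells and 3657 in shLacZ cells. ATP5MC2 had 3473 fragments in shPSPC1 cells and 3254 in shLacZ cells. ATP5MC1 had 3291 fragments in shPSPC1 cells and 2728 in shLacZ cells. All 3 were above 0 by fragments, with separate intervals for ATP5MC3 and ATP5MC1 and overlapping ones for ATP5MC2. By summed FPKM, ATP5MC3 had 74.3 ± 2.71 FPKM in shPSPC1 cells and 114 ± 4.2 FPKM in shLacZ cells, the other direction, with assembled transcripts of 889 bases in shPSPC1 cells and 623 bases in shLacZ cells that differ in length.

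**Figure D4:**
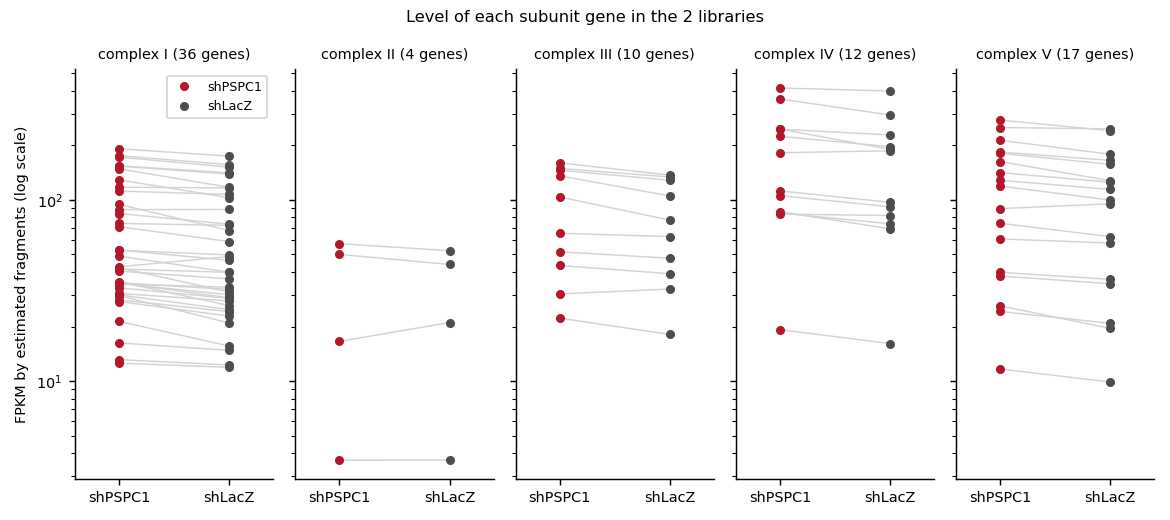
Level of each expressed subunit gene in the shPSPC1 library (left, red) and the shLacZ library (right, grey), in FPKM by estimated fragments over the longest annotated transcript on a log scale, with grey lines joining a gene's values; the number of genes stands above each panel. Most lines slope slightly down to the right, and the line of SDHD in complex II slopes up.

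Summed over each complex, the genes at 1 FPKM or more had 95241 fragments in shPSPC1 cells and 83276 in shLacZ cells for complex I, 11276 and 10395 for complex II, 52280 and 43918 for complex III, 56315 and 49939 for complex IV, and 96673 and 86228 for complex V. On the FPKM scale, the sum was 1.13 times that of shLacZ cells for complex I, 1.05 for complex II, 1.16 for complex III, 1.13 for complex IV and 1.13 for complex V. The complexes other than II were thus within a narrow range of each other. Single genes ranged over log2 ratios of -0.18 to 0.48 in complex I, -0.33 to 0.18 in complex II, -0.09 to 0.42 in complex III, -0.04 to 0.37 in complex IV and -0.09 to 0.40 in complex V. The order of the medians, 0.20 for complex IV, 0.19 for V, 0.17 for I, 0.17 for III and 0.06 for II, is a description, and the ranges of their genes overlapped.

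Promoters are shown for 2 members of each complex, those with the highest and the lowest log2 ratio by estimated fragments. They were taken among expressed members with an entry. NRF1, GABP and YY1 bind many subunit genes, and their motifs could be read beside the ratios. The sequences are from RefSeq on GRCh38.p14, and each is the 120 bases before the annotated start, 5′ to 3′ on the strand of the gene. Capitals mark matches to CGCANGCG for NRF1, CCGGAAG for GABP and AAGATGG for YY1, on either strand. In each pair of lines the member with the higher ratio comes first.
NDUFA7 (chr19:8321376-8321495, minus strand): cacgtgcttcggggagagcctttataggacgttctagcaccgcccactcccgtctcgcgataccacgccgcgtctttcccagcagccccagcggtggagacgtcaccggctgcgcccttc
NDUFV1 (chr11:67606816-67606935, plus strand): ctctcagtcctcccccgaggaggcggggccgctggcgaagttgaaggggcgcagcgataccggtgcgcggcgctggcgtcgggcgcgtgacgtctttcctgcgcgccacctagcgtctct
SDHA (chr5:218200-218319, plus strand): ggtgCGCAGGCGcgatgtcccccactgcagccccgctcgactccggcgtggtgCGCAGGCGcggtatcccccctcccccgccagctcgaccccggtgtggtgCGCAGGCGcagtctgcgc
SDHD (chr11:112086753-112086872, plus strand): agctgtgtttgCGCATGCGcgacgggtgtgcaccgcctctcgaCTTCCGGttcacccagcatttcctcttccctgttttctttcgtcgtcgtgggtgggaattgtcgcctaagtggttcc
UQCRC2 (chr16:21953241-21953360, plus strand): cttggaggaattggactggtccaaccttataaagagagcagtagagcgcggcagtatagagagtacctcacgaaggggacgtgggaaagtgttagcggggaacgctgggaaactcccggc
UQCR11 (chr19:1605463-1605582, minus strand): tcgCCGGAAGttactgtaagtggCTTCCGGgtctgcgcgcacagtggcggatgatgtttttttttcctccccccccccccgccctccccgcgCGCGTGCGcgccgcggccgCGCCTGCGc
COX7C (chr5:86617821-86617940, plus strand): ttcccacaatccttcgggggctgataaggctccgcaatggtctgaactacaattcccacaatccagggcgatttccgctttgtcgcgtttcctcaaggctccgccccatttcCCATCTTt
COX8A (chr11:63974500-63974619, plus strand): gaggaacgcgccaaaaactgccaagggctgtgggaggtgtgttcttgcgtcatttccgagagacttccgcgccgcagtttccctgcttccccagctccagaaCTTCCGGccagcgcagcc
ATP5PF (chr21:25735055-25735174, minus strand): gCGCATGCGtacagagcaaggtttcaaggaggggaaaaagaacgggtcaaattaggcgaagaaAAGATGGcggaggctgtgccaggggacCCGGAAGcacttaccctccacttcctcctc
ATP5MJ (chr14:103921530-103921649, minus strand): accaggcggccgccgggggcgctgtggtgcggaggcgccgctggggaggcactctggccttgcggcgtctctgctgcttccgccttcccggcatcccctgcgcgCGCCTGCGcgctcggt

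For NRF1 and GABP, members with and without the letters had similar median ratios. Of the members, 69 had an entry, with 82 start sites, and 250 bases before each start were searched. The NRF1 letters were in 31.7% of the 82 windows and in 8.69% of all 35116 windows of that length. The GABP letters were in 23.2% of the members' windows and 8.52% of all windows, and the YY1 letters in 7.32% and 3.70%. Overlapping matches were allowed. The 24 expressed members with an NRF1 match had a median log2 ratio of 0.19 by estimated fragments, and the 41 without one a median of 0.18. For GABP the medians were 0.16 for 18 members with a match and 0.19 for 47 without. In the sequences above, matches stand in members with higher and lower ratios alike. SDHA, ATP5PF and COX7C, with the highest ratios shown of their complexes, carry some, as do SDHD, UQCR11, COX8A and ATP5MJ, with the lowest. NDUFA7 and UQCRC2, with the highest ratios of theirs, and NDUFV1, with the lowest of complex I, carry none. The few members with a YY1 match, 5 genes, had a median of 0.37, COX7C and ATP5PF among them, and the 60 without one a median of 0.18. A match is a string of letters and does not show that a factor was bound.

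The regulators of mitochondrial biogenesis had a median that depended on the measure. Of 18 genes in the list, 15 had at least 1 FPKM, and by estimated fragments 8 lay above 0 and 7 below, with a median log2 ratio of 0.02. By summed FPKM 10 lay above 0 and 5 below, with a median of 0.16, close to that of the subunit genes by the same measure, 0.17. No difference between the lists was tested. At the limit of 1.2-fold, YY1 was higher, and GABPA, GABPB1, ESRRA and TWNK were lower. GABPA, the DNA-binding subunit of GABP, had 628 fragments in shPSPC1 cells and 1037 in shLacZ cells, a log2 ratio of -0.55. GABPB1, its partner, had 2647 fragments in shPSPC1 cells and 3964 in shLacZ cells, a log2 ratio of -0.57, but 0.89 by summed FPKM, so its direction rests on the measure. ESRRA, a nuclear receptor that acts on many mitochondrial genes, had 13.2 ± 0.670 FPKM in shPSPC1 cells and 18.4 ± 0.797 FPKM in shLacZ cells, a log2 ratio of -0.45. YY1 had 39.7 ± 1.07 FPKM in shPSPC1 cells and 32.5 ± 0.976 FPKM in shLacZ cells, a log2 ratio of 0.28. NRF1 had 679 fragments in shPSPC1 cells and 700 in shLacZ cells, a log2 ratio of -0.05, but one of 0.63 by summed FPKM, with 6.10 ± 0.553 FPKM in shPSPC1 cells and 3.59 ± 0.358 FPKM in shLacZ cells. PPARGC1A, a coactivator of this programme, stayed under 1 FPKM in both libraries. TFAM, which packages mitochondrial DNA, had a log2 ratio of -0.05.

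The 50 assembly factors, which build the complexes without being part of them, had a median log2 ratio of 0.03 by estimated fragments, with 29 above 0 and 21 below. At the limit of 1.2-fold 6 were higher and 3 lower. SDHAF1, which helps to insert the iron-sulfur clusters of SDHB, rose past the rule of size by both measures, with 18.9 ± 1.17 FPKM in shPSPC1 cells and 6.17 ± 0.872 FPKM in shLacZ cells, or 1040 and 336 fragments. SURF1, a factor of complex IV, had 3208 fragments in shPSPC1 cells and 660 in shLacZ cells, but 6.69 ± 0.239 FPKM and 13.4 ± 1.04 FPKM, so that the measures disagreed in direction. So many fragments at so low an FPKM imply a listed transcript much longer than its longest annotated one, of 1037 bases. The fragments of SURF1 in shPSPC1 cells, which place it among the 6 higher factors, may thus include some from outside its annotated exons. UQCC2, a factor of complex III, rose by summed FPKM, with 43.1 ± 3.05 FPKM in shPSPC1 cells and 14.4 ± 0.934 FPKM in shLacZ cells, and had a log2 ratio of 0.21 by fragments. NDUFAF6, a factor of complex I, fell by summed FPKM, with 6.03 ± 0.508 FPKM in shPSPC1 cells and 13.1 ± 1.14 FPKM in shLacZ cells, and had a log2 ratio of -0.43 by fragments. The median of the assembly factors lay below that of the subunits by both measures, a difference that was not tested.

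Genes of the mitochondrial genome could be set beside the nuclear ones only in part. Of 13 such genes, 7 were listed at 0 in both libraries, and an exact 0 for a gene that mitochondria transcribe may be a failed estimate. COX3 had 1089 FPKM in shPSPC1 cells and 942 FPKM in shLacZ cells, and COX1 had 554 FPKM and 502 FPKM. ND3 had 210 FPKM in shPSPC1 cells and 228 FPKM in shLacZ cells. COX2 was listed at 0 in shPSPC1 cells and at 281 FPKM in shLacZ cells, and ND4 at 61.5 FPKM in shPSPC1 cells and at 0 in shLacZ cells. The 3 genes with a value in both libraries did not share a direction.

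**Figure D5:**
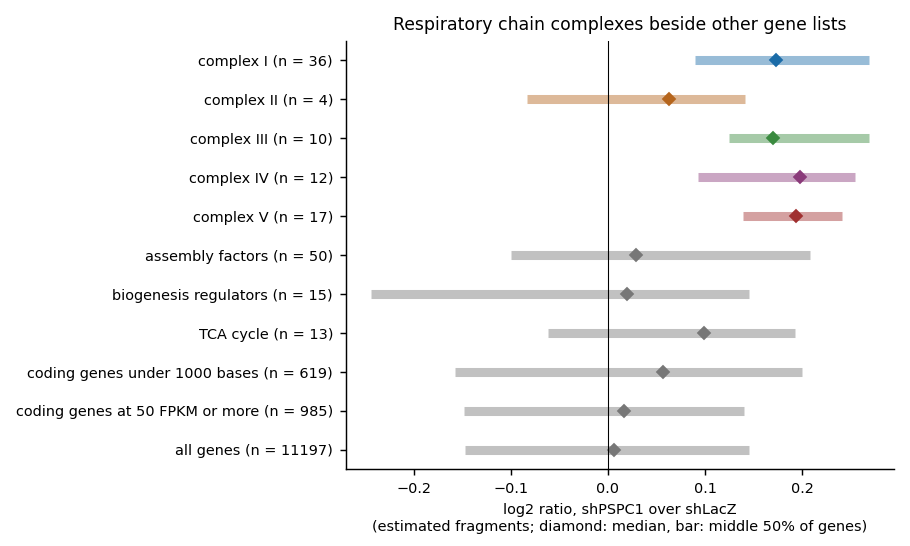
Median (diamond) and middle 50% of genes (bar) of the log2 ratio by estimated fragments, shPSPC1 over shLacZ, for each complex, for other gene lists and for all 11197 genes; n is the number of genes at 1 FPKM or more. Complexes I, III, IV and V lie at medians of 0.17 to 0.20, and the assembly factors and biogenesis regulators at 0.03 and 0.02.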

How the data were processed

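RNA of A549 cells was sequenced, 1 library for each shRNA. CASAVA 1.8.2, TopHat2 2.0.7 and Cufflinks 2.1.1 were used, per the submitters' processing notes; no genome build is named there. FPKM and coverage with 95% interval bounds were computed by the authors for annotated and assembled transcripts, per the labels in the deposited files' attribute text. The other columns hold positions.

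Transcripts were joined to genes by accession or, if assembled with a strand, by shared introns. Gene names are RefSeq's. A gene's half-width is the root of its transcripts' summed squared half-widths. Depth and fragment length were fitted on lone transcripts with 5 to 200 fragments, of which 94.6% in the shPSPC1 file and 94.4% in the shLacZ file came out whole within 0.02. FPKM times effective length gave estimated fragments; 1 FPKM over 2000 bases stands for 105 fragments in the shPSPC1 library and 103 in the shLacZ library. Intervals cover error within a library only, not variation between replicates. The fit and the rule of size were tested on simulated counts, without transcripts that differ in length between libraries. The 1.2-fold limit was not tested in this way.

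Members and lists were chosen with earlier results of these data known. Named members are those past the rule of size, the 3 most abundant and 2 with the largest ratio per complex, all of complex II, isoform sets and those with a changed transcript share; others, such as core subunits and members below 0, were added after their values were seen. Alternatives were transcript choice, pseudocount, minimum level and scaling. Python 3.11.15, numpy 2.4.6 and pandas 2.3.3 were used. Some items are not reported here.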

Additional observations from a re-analysis of the deposited data

How the results depend on the processing

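No paired analysis was possible because each group has 1 library, and no library could be left out. With other settings, 66 of 74 recomputed values stayed within the members' interval half-width or, for counts, within 1.5 times the value given. By estimated fragments no member passed the rule of size, 0 higher and 0 lower, against 1 and 2 by summed FPKM. With annotated transcripts alone 5 were higher and 1 lower. No share over all genes is given for that setting, so these counts are not read as a result about the members. The median log2 ratio of complex III, 0.17 by summed FPKM, was 0.28 with annotated transcripts alone and 0.27 after rescaling without mitochondrially encoded genes. The latter moved the median of all genes by 0.08 and left the members' median 0.18 above it, against 0.16 by summed FPKM. At a limit of 1.5-fold no member, 0 of 79, was called, against 19 at 1.2-fold. The median of complex II was 0.01 by summed FPKM and -0.03 with annotated transcripts alone, so its sign is not settled. Alternatives chosen after seeing the data restricted the members: of those of 1000 bases or more, 31 of 35 lay above 0 by estimated fragments, with a median of 0.14. By summed FPKM 64 of the 79 members lay above 0 and 15 below, and the median of all members was 0.17, against 0.18 by estimated fragments. The cause of these differences was not tested, except that fewer members enter the last restriction.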

Other observations

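The tricarboxylic acid cycle feeds electrons to complexes I and II, and its 13 genes outside complex II were split by direction. By estimated fragments 7 lay above 0 and 6 below, with a median log2 ratio of 0.10, and by summed FPKM the median was -0.06. At the limit of 1.2-fold, 3 genes were higher, IDH3B, IDH3G and DLD, and 2 were lower, OGDH and SUCLG2. IDH3G, a regulatory subunit of the NAD-dependent isocitrate dehydrogenase, had 21.3 ± 1.06 FPKM in shPSPC1 cells and 16.2 ± 0.933 FPKM in shLacZ cells. OGDH, a component of the oxoglutarate dehydrogenase complex, had 10.5 ± 0.421 FPKM in shPSPC1 cells and 14.3 ± 0.495 FPKM in shLacZ cells. DLD, which serves the same complex, had 5847 fragments in shPSPC1 cells and 4554 in shLacZ cells, the other direction, at a log2 ratio of 0.33.

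Genes close to the chain but not counted as subunits also varied. CYCS, the mobile cytochrome c, had 9359 fragments in shPSPC1 cells and 9607 in shLacZ cells. ATP5IF1, which inhibits ATP hydrolysis by complex V, had 98.2 ± 4.27 FPKM in shPSPC1 cells and 76.2 ± 3.78 FPKM in shLacZ cells, a log2 ratio of 0.34 by estimated fragments. NDUFAB1, the acyl carrier protein of complex I and of fatty acid synthesis in mitochondria, had 78.5 ± 3.31 FPKM in shPSPC1 cells and 68.4 ± 3.10 FPKM in shLacZ cells.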
